A study of Mus musculus with 6 samples.

Results

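The T cell receptor complex and its coreceptors were followed in chronic stroke infarcts through 10 genes of the 46078 in the count tables. They are *Cd3d*, *Cd3e*, *Cd3g* and *Cd247*, which encode the CD3 and zeta signaling chains, *Trac* and *Trbc2*, which encode constant regions of the receptor alpha and beta chains, the coreceptor genes *Cd4*, *Cd8a* and *Cd8b1*, and *Cd2*, which encodes an adhesion and costimulatory receptor. The genes were chosen by name as the receptor complex, its coreceptors and *Cd2*. No cutoff on their measured values was used, but earlier results of these data were known. *Cd3e* and *Cd2* are also among the genes that the study itself named from these libraries. Their counts are therefore not independent evidence of a direction.

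The libraries came from 3 infarcts and 3 contralateral cortices of wild type C57BL/6J mice, male per the study's methods. For both groups, age is recorded as 3 months and collection as 7 weeks after stroke. Stroke was induced with the DH model, in which the distal middle cerebral artery is closed by electrocoagulation and the mouse is then exposed to hypoxia, and mice were perfused with saline before dissection. Each infarct was cut out by eye, and the matching region of the other hemisphere of stroke-bearing mice served as the control, so no library came from a mouse without a stroke. The sample records name no treatment and do not tell which libraries of both regions share a mouse. *p* values therefore measure the spread between these tissue samples. Infarcts and contralateral cortices are called by the replicate numbers of their labels.

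In a T cell, the alpha and beta chains recognize a peptide held by an MHC molecule but have almost no signaling tail of their own. The CD3 gamma, delta and epsilon chains and the zeta chain (*Cd247*) carry the tyrosine motifs that the kinase Lck phosphorylates and to which the kinase ZAP-70 binds. CD4 recognizes MHC class II and marks helper and regulatory T cells, whereas the CD8 alpha and beta chains recognize MHC class I and mark cytotoxic T cells, and both coreceptors bring Lck to the receptor. T cells are rare in the healthy brain parenchyma. Several of the genes are not confined to T cells: natural killer (NK) cells also use the zeta chain and CD2, some dendritic cells carry CD8 alpha as a homodimer, and CD4 is found on some myeloid cells.

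The members occupy 5 chromosomes of GRCm38 (GENCODE M21). The CD3 genes form 1 cluster on chromosome 9: *Cd3g* (ENSMUSG00000002033, chr9:44969572-44980431, minus strand) and *Cd3d* (ENSMUSG00000032094, chr9:44981786-44987339, plus strand) lie head to head with 1354 bases between them, and *Cd3e* (ENSMUSG00000032093, chr9:44998740-45009627, minus strand) follows after 11400 bases. *Cd8b1* (ENSMUSG00000053044, chr6:71322788-71337494) and *Cd8a* (ENSMUSG00000053977, chr6:71373427-71379173) lie 35932 bases apart on the plus strand of chromosome 6. The same chromosome holds *Cd4* (ENSMUSG00000023274, chr6:124864692-124888221, minus strand) and *Trbc2* (ENSMUSG00000076498, chr6:41546730-41548352, plus strand). *Trac* (ENSMUSG00000076928) is at chr14:54220521-54224206 on the plus strand, *Cd247* (ENSMUSG00000005763) at chr1:165788681-165877277 on the plus strand and *Cd2* (ENSMUSG00000027863) at chr3:101275899-101287939 on the minus strand. Of the exon bases of *Cd247*, 56.4% overlap exons on the other strand and 3.87% overlap exons on its own strand, and for *Cd3e* the share on the other strand is 3.31%. The strand setting of the counting is not given in the sources used here, so counts from such an overlap cannot be assigned to 1 gene.

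The RefSeq promoter table (GRCm38.p6) held 5 of the 10 members. The 150 bases before their annotated starts are shown because these genes were upregulated together or, for *Cd3d*, had counts in the same libraries. They lie at chr9:44981636-44981785 for *Cd3d*, chr9:45009612-45009761 for *Cd3e*, chr9:44980432-44980581 for *Cd3g*, chr1:165788531-165788680 for *Cd247* and chr6:71373277-71373426 for *Cd8a*, and each reads 5′ to 3′ on the strand of its gene. The RefSeq start of *Cd3e* lies inside the gene as GENCODE M21 draws it, so the last bases of its stretch, with part of its last marked match, are within the gene in that annotation. Capitals mark matches on either strand to the ETS core GGAAG, which reads as CTTCC where it lies on the opposite strand, and to the E box CANNTG, the core letters bound by ETS factors and by E proteins, both of which are known in T cell development.
*Cd3d*: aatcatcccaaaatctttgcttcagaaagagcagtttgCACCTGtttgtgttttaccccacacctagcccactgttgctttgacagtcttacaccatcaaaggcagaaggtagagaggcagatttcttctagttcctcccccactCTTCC
*Cd3e*: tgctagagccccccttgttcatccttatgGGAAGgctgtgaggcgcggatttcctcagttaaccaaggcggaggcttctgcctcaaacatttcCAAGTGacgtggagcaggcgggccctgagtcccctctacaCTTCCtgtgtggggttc
*Cd3g*: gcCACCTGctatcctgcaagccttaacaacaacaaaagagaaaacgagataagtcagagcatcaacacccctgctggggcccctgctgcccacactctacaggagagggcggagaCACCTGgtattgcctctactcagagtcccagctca
*Cd247*: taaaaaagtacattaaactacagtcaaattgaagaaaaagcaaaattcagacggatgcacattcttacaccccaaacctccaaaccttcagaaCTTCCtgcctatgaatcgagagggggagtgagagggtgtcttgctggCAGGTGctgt
*Cd8a*: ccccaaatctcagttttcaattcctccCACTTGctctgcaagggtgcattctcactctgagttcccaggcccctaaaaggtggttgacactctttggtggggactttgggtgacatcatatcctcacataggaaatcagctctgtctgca
Over the 250 bases before the start, GGAAG was present in 4 of the 5 members (*Cd3d*, *Cd3e*, *Cd247* and *Cd8a*) and in 64.1% of all 32851 windows of that length. The E box was present in 5 of 5 members and in 66.2% of all windows, so neither set these genes apart. The letters TATAAA occurred in 12.4% and the RUNX core TGTGGT in 14.05% of all windows, and each occurred in 0 of the 5 members. In the stretches shown, no marked match overlapped another.

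Counts on genes ranged from 12146959 to 13427057 in infarcts and from 11943570 to 19933962 in contralateral cortices, whereas 26.6% to 34.3% of each library's reads were not assigned to a gene. Counts were scaled with edgeR's TMM method, levels are given as TMM-scaled CPM, the counts relative to the scaled library size (mean ± SD, n = 3 per region), and 15554 genes passed the filter on low counts. A gene was called at an edgeR adjusted *p* under 0.05 with a fold change above 2. By that rule, 25.7% of the tested genes were called upregulated in infarcts and 20.9% downregulated, and for 37.6% of them all 3 infarcts were above all 3 contralateral cortices. Where all 3 contralateral libraries held 0 counts, the fold is given as a lower bound computed with 3 counts in each of them. Where they held 1 to 3 counts in all, the ratio of the summed counts per library size is given with its exact 95% interval. Intervals and bounds leave out the spread between tissue samples. They cover counting error only, and that in part, since without molecular identifiers several reads may stem from 1 molecule.

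Of the 10 members, 9 were tested, 9 were upregulated and 0 were downregulated in infarcts (25.7% and 20.9% of all tested genes). Other than *Trbc2*, the tested members had 0 to 5 counts in each contralateral library and passed the filter through their infarct counts alone, so they could hardly be tested without differing, and their number is given as a description. Their median log2 fold change was 7.38, or 5.81 with *Cd8a* and *Cd2* set at their bounds, compared with 0.03 over all tested genes. *Cd3d* failed the filter on low counts. For all 10 members, every infarct was above every contralateral cortex, as it was for 37.6% of all tested genes. The summed level of the members was 160, 67.0 and 39.9 CPM in infarcts 1, 2 and 3, and 4.65, 4.30 and 3.05 CPM in contralateral cortices 1, 2 and 3, most of the latter from *Trbc2*. In bulk tissue, fewer cells of a type and less RNA per cell cannot be told apart, and neither can more cells and more RNA per cell.

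**Figure D1:**
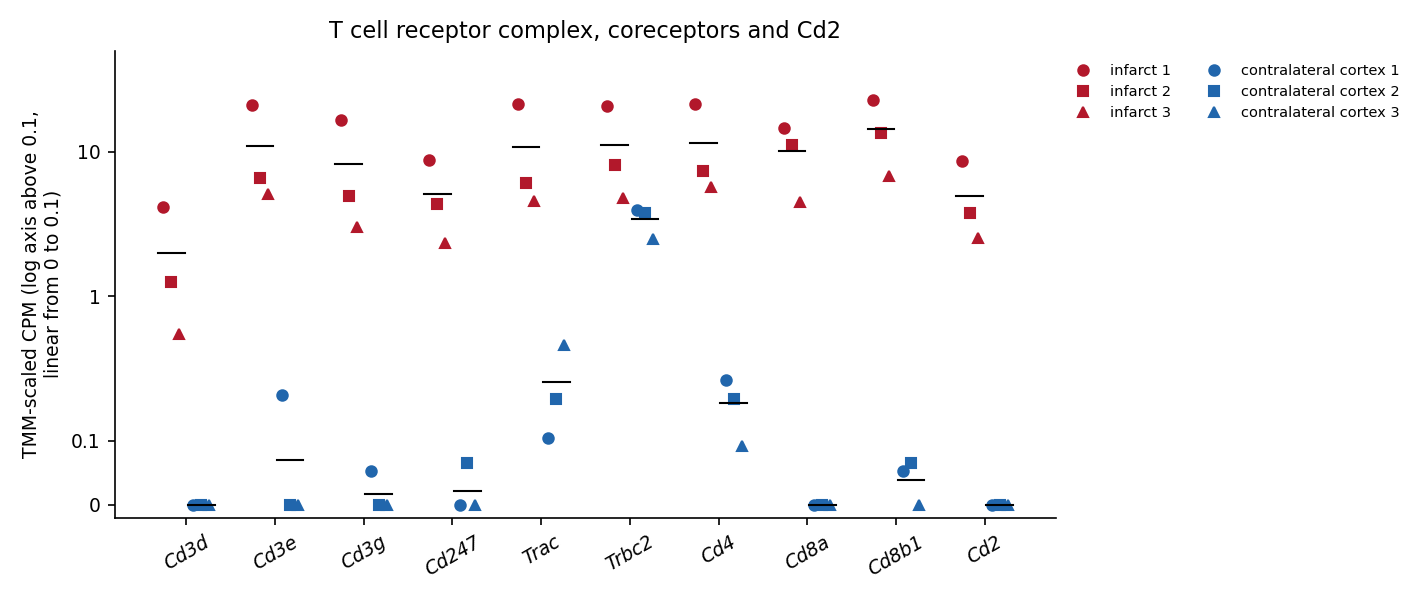
TMM-scaled CPM of the 10 members in each library, on an axis that is logarithmic above 0.1 and linear from 0 to 0.1. Red symbols are infarcts 1 to 3, blue symbols contralateral cortices 1 to 3 and black bars the mean of each region. All infarct points lie above the contralateral points of the same gene, infarct 1 is the highest for each gene, and *Trbc2* has the smallest gap.

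Of the CD3 and zeta chains, which transmit the receptor's signal, *Cd3e* was counted 266, 89 and 75 times in infarcts 1, 2 and 3 and 4, 0 and 0 times in contralateral cortices 1, 2 and 3. It averaged 10.9 ± 8.90 CPM in infarcts and 0.0696 ± 0.121 CPM on the contralateral side, with a log2 fold change of 6.84 ± 0.99 (SE; edgeR adjusted *p* = 0.000579). The regions did not overlap, with infarcts higher, as for 37.6% of all tested genes. The infarct level rested largely on infarct 1: without it the log2 fold change was 5.96 (edgeR adjusted *p* = 1.22e-05). Without contralateral cortex 1, the other contralateral libraries were at 0 and the fold was at least 46.4.

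*Cd3g* was counted 209, 67 and 44 times in infarcts and 1, 0 and 0 times in contralateral cortices. The ratio was 355 (exact 95% interval 63.3 to 14080; edgeR adjusted *p* = 0.000436), and 178 (31.3 to 7094) without infarct 1. *Cd247* was counted 110, 59 and 34 times in infarcts and 0, 1 and 0 times in contralateral cortices, a ratio of 225 (40.0 to 8948; edgeR adjusted *p* = 7.14e-05). The single contralateral count of each gene sets these ratios, and without that library (contralateral cortex 1 for *Cd3g*, contralateral cortex 2 for *Cd247*) the other contralateral libraries were at 0. For *Cd247* the ratio was 149 (26.1 to 5954) without infarct 1, and the fitted log2 fold change moved from 7.38 to 6.75 without contralateral cortex 1.

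*Cd3d* was the least counted chain, with 52, 17 and 8 counts in infarcts and 0 in each contralateral cortex. Its level in infarcts was 1.98 ± 1.91 CPM, at least 9.44-fold higher than in contralateral cortices, or at least 4.28-fold without infarct 1. It was called when the filter on low counts was left out (edgeR adjusted *p* = 7.13e-05, and 1.44e-05 without infarct 1 as well). The 3 CD3 genes together gave 527, 173 and 127 counts in infarcts and 5, 0 and 0 in contralateral cortices.

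*Trac*, the constant region of the alpha chain, was counted 270, 83 and 67 times in infarcts and 2, 3 and 5 times in contralateral cortices. It averaged 10.7 ± 9.37 CPM and 0.254 ± 0.186 CPM, with a log2 fold change of 5.51 ± 0.86 (SE; edgeR adjusted *p* = 0.000842). It was 4.52 without infarct 1 (edgeR adjusted *p* = 1.44e-05) and 6.12 without contralateral cortex 3 (edgeR adjusted *p* = 0.00425). *Trac* levels were above those of the contralateral cortices in each infarct library, as were those of 37.6% of all tested genes.

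*Trbc2*, the second constant region of the beta chain, differed from the other members in its contralateral level. It was counted 260, 110 and 70 times in infarcts and 76, 58 and 27 times in contralateral cortices, or 11.2 ± 8.41 CPM and 3.41 ± 0.803 CPM. The log2 fold change was 1.69 ± 0.53 (SE; edgeR adjusted *p* = 0.0226), the smallest among the tested members. The call did not hold without infarct 1 (0.91, edgeR adjusted *p* = 0.0304), nor without contralateral cortex 1 (1.80, edgeR adjusted *p* = 0.0584), 2 (1.75, edgeR adjusted *p* = 0.0632) or 3 (1.52, edgeR adjusted *p* = 0.083), nor without the filter on low counts (1.71, edgeR adjusted *p* = 0.085). The *Trbc2* to *Trac* count ratio was 0.963, 1.33 and 1.04 in infarcts 1, 2 and 3, but 38, 19.3 and 5.40 in contralateral cortices 1, 2 and 3. In contralateral cortices, *Trbc2* counts were thus found nearly without counts on the alpha constant region or on the CD3 genes.

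*Trbc1*, the other beta constant region, lies 6848 bases from *Trbc2*. It was counted 63, 64 and 27 times in infarcts and 0 times in each contralateral cortex, at least 18.4-fold higher in infarcts (edgeR adjusted *p* = 0.000147). Its share of *Trbc1* plus *Trbc2* counts was 19.5% (exact 95% interval 15.3 to 24.3), 36.8% (29.6 to 44.4) and 27.8% (19.2 to 37.9) in infarcts 1, 2 and 3. In contralateral cortices it was 0 of 76, 0 of 58 and 0 of 27 counts, which allows shares of up to 4.74%, 6.16% and 12.8%. The contralateral counts were thus on *Trbc2* alone. The pair shares 233 windows of 75 bases, 34.6% of those of *Trbc1* and 37.7% of those of *Trbc2*, and the count tables hold reads with more than 1 alignment in an entry apart from the genes, so both genes may be undercounted.

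Gamma delta T cells use other chains with the same CD3 complex. *Trdc*, the delta constant region, was counted 13, 28 and 20 times in infarcts and 2, 0 and 1 times in contralateral cortices, a ratio of 22.6 (exact 95% interval 7.37 to 113; edgeR adjusted *p* = 0.000445), and the fitted log2 fold change moved from 4.33 to 4.95 without contralateral cortex 1. Unlike the members, it was lowest in infarct 1. *Trdc* made up 4.59% (2.47 to 7.73) of *Trac* plus *Trdc* counts in infarct 1, 25.2% (17.5 to 34.4) in infarct 2 and 23.0% (14.6 to 33.2) in infarct 3. The interval of infarct 1 did not reach those of the others. These count shares are not shares of transcripts, since *Trdc* has 3865 exon bases and *Trac* 935. Per kb of exon, *Trdc* was at 0.268, 0.532 and 0.353 CPM in infarcts 1, 2 and 3, and *Trac* at 23.0, 6.52 and 4.89 CPM. Of the *Trdc* exon bases, 7.84% overlap exons on the other strand. The gamma constant genes *Tcrg-C1*, *Tcrg-C2*, *Tcrg-C3* and *Tcrg-C4* summed to 55, 38 and 19 counts in infarcts and 0 in each contralateral cortex, with *Tcrg-C3* at 0 throughout. Of the 6 constant genes beyond the members, 2 were tested and 2 were upregulated (25.7% of all tested genes). These 2, *Trbc1* and *Trdc*, had 0 to 2 counts in each contralateral library. They passed the filter through their infarct counts alone, so their number is a description. Without infarct 3, or without any 1 of contralateral cortices 1, 2 and 3, 4 constant genes were called, when more of them passed the filter.

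**Figure D2:**
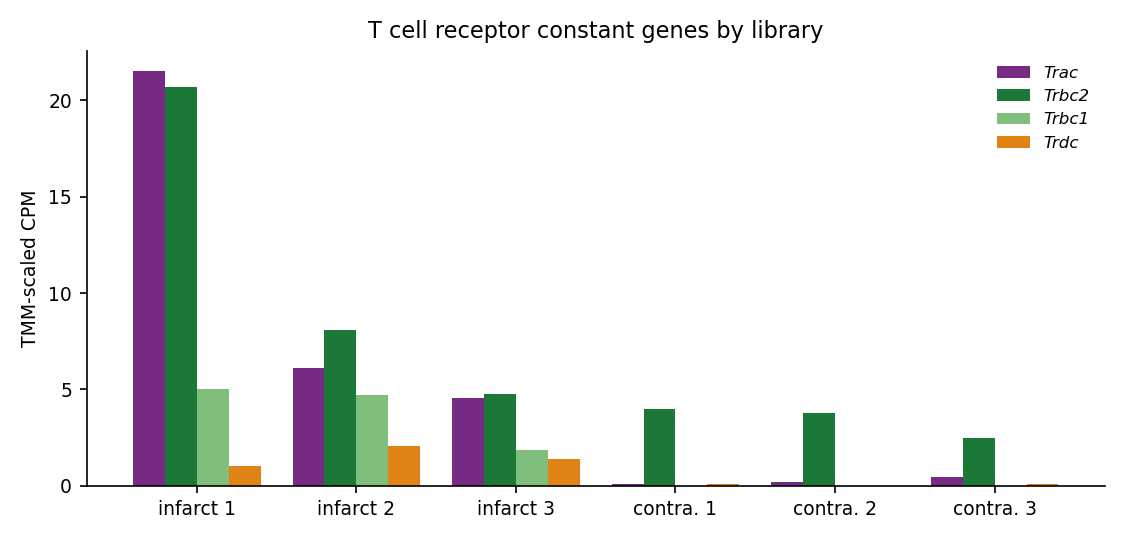
TMM-scaled CPM of *Trac*, *Trbc2*, *Trbc1* and *Trdc* in each library, 1 bar per gene, with the axis starting at 0. *Trac* and *Trbc2* are of like height in each infarct, while in the contralateral cortices the *Trbc2* bar stands almost alone, at 3.41 CPM on average.

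Receptor diversity arises from variable segments joined to these constant regions, and counts on them were sparse. Of 34 beta segments, 21 had at least 1 count in infarcts and 3 in contralateral cortices, with 122, 49 and 37 counts in infarcts and 1, 3 and 0 in contralateral cortices. Of 134 alpha and delta segments, 38 were detected in infarcts, with 88, 41 and 41 counts, and 8 in contralateral cortices, with 8, 16 and 7 counts. Of 7 gamma segments, 4 and 0 were detected. *Trbv16*, the most counted beta segment, had 32 of its counts in infarct 1 and 3 and 2 in infarcts 2 and 3, whereas *Trbv19* had 16, 9 and 4. *Trav14n-3*, the most counted alpha segment, had 13, 8 and 10 in infarcts and 0 in contralateral cortices, whereas *Trav9-4* had 5, 0 and 0 in infarcts and 3, 5 and 3 in contralateral cortices. In each infarct, counts were spread over 14 to 17 beta segments, and 10 were detected in all 3. The number of segments detected moves with the number of counts, and counts of unlike segments share 1 library, so no test was made.

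Both coreceptors were higher in infarcts. *Cd4* was counted 269, 100 and 84 times in infarcts and 5, 3 and 1 times on the contralateral side, or 11.5 ± 8.63 CPM and 0.183 ± 0.0851 CPM. Its log2 fold change was 5.81 ± 0.71 (SE; edgeR adjusted *p* = 0.000133), and 5.02 without infarct 1 (edgeR adjusted *p* = 2.33e-06). *Cd8a*, the alpha chain of CD8, was counted 183, 152 and 66 times in infarcts and 0 times in each contralateral cortex. Its level of 10.1 ± 5.12 CPM in infarcts was at least 48.1-fold higher (edgeR adjusted *p* = 0.000184). *Cd8b1*, the beta chain that makes the heterodimer of conventional cytotoxic T cells, was counted 288, 185 and 100 times in infarcts and 1, 1 and 0 times in contralateral cortices. Its level was 14.4 ± 8.09 CPM and 0.0391 ± 0.0345 CPM, a ratio of 318 (exact 95% interval 87.7 to 2634; edgeR adjusted *p* = 1.69e-05). For all 3 genes every infarct was above every contralateral cortex, as it was for 37.6% of all tested genes. These 3 genes passed the filter through their infarct counts alone, so this separation is a description. The *Cd8a* and *Cd8b1* counts of infarct 2 were closer to those of infarct 1 than its *Cd4* count was.

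The balance of both coreceptors was compared within each library. *Cd8a* plus *Cd8b1* made up 63.6% (exact 95% interval 60.1 to 67.1) of 740 coreceptor counts in infarct 1, 77.1% (72.9 to 81.0) of 437 in infarct 2 and 66.4% (60.2 to 72.2) of 250 in infarct 3. The interval of infarct 2 lay above the others, and the share exceeded 60% in each infarct. This share sums *Cd8a* and *Cd8b1*, whereas *Cd4* is a single gene. *Cd8a* counts alone were below *Cd4* counts in infarcts 1 and 3 (183 against 269, and 66 against 84). They were above in infarct 2 (152 against 100). *Cd8b1* counts alone were above *Cd4* counts in each infarct. The 3 contralateral cortices held 6, 4 and 1 coreceptor counts, of which 1, 1 and 0 were CD8 counts. Pooled, the CD8 share was 68.3% of 1427 counts in infarcts (65.8 to 70.7) and 18.2% of 11 counts in contralateral cortices (2.28 to 51.8). On the log2 scale with 0.5 added to each count, the ratio of *Cd4* to *Cd8a* plus *Cd8b1* was -0.81, -1.75 and -0.98 in infarcts (mean -1.18 ± 0.50, SD) and 1.87, 1.22 and 1.58 in contralateral cortices (mean 1.56 ± 0.33). The mean was lower in infarcts by 2.74 (-2.74 as infarct minus contralateral cortex), and a two-sided exact permutation test gave *p* = 0.1, the smallest that 3 against 3 libraries allow. With at most 6 coreceptor counts in a contralateral library, the contralateral ratio is set by single counts.

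Counts on different genes compare only per length. Per kb of exon, the infarct levels of *Cd4* were 5.31, 1.82 and 1.42 CPM, those of *Cd8a* 4.01, 3.07 and 1.24 CPM and those of *Cd8b1* 15.5, 9.16 and 4.60 CPM. *Cd4* was thus above *Cd8a* in infarcts 1 and 3 and below it in infarct 2, with a mean log2 difference of -0.05 ± 0.62 (SD, n = 3) that was smaller than its spread. The difference was 0.30 without infarct 2 and 0.11 with the length of the longest transcript, so no order of *Cd4* and *Cd8a* could be read. *Cd8b1* was above both in each infarct, by 3.86, 2.98 and 3.72 times relative to *Cd8a* (3.03 ± 0.403 on average with the longest transcript). Against the CD3 epsilon chain, *Cd4* counts stood at 1.01, 1.12 and 1.12 per *Cd3e* count and CD8 counts at 1.77, 3.79 and 2.21. The *Cd4* to *Cd3e* ratio was therefore nearly the same in the infarcts, whereas the CD8 ratio was highest in infarct 2.

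**Figure D3:**
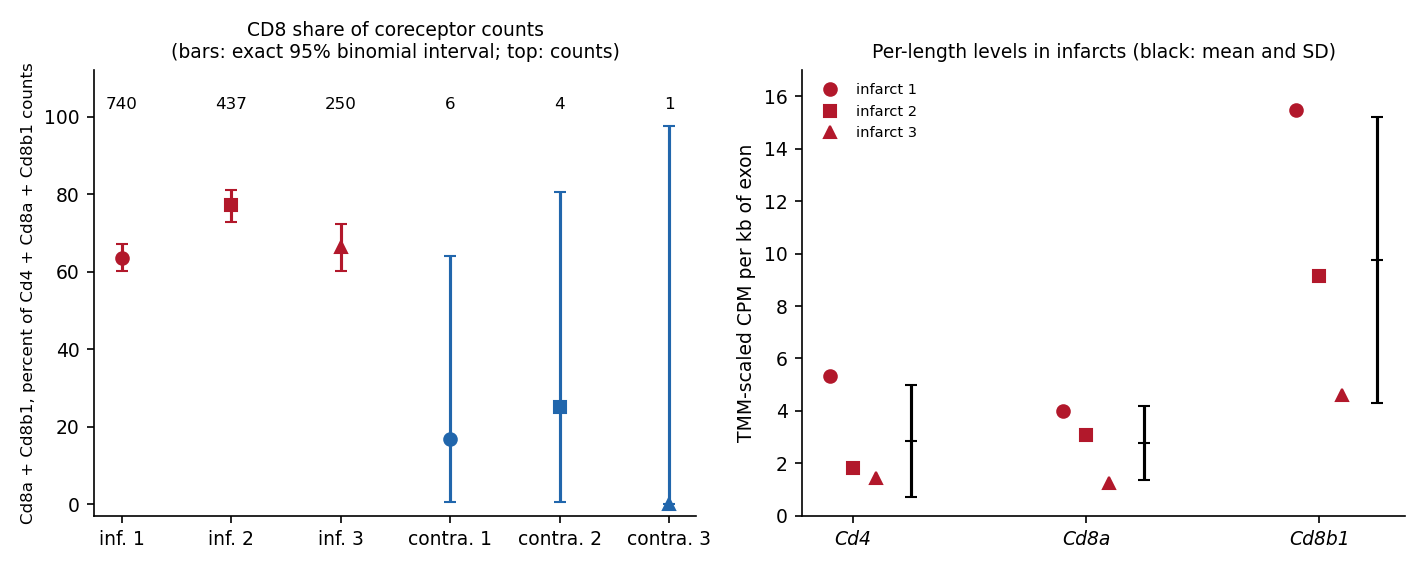
Left, the percent of *Cd4* plus *Cd8a* plus *Cd8b1* counts that fell on the CD8 genes in each library, with exact 95% binomial intervals and the number of counts above. Right, TMM-scaled CPM per kb of exon of *Cd4*, *Cd8a* and *Cd8b1* in infarcts 1 to 3, with the mean and SD in black. Infarct shares lie between 63.6% and 77.1% with narrow intervals, contralateral intervals span most of the axis, and *Cd8b1* is the highest coreceptor gene per kb in each infarct.

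*Cd2*, whose product binds CD48 on other cells in the mouse, was counted 108, 51 and 37 times in infarcts and 0 times in each contralateral cortex. Its infarct level of 4.96 ± 3.21 CPM was at least 23.6-fold higher (edgeR adjusted *p* = 0.000316), or at least 14.96-fold without infarct 1. Per kb of exon, the members of highest mean level in infarcts were *Trbc2* (16.2 ± 12.2 CPM), *Trac* (11.5 ± 10.02) and *Cd8b1* (9.74 ± 5.46). *Cd4* (2.85 ± 2.14), *Cd2* (2.85 ± 1.85), *Cd8a* (2.77 ± 1.41), *Cd3e* (2.68 ± 2.18) and *Cd3g* (2.51 ± 2.26) followed, and *Cd3d* (1.09 ± 1.05) and *Cd247* (0.964 ± 0.618) were lowest. No pair of neighbors in this order was separated by more than the spread over infarcts. Within libraries, *Trbc2* was above *Trac*, *Cd8b1* above *Cd4*, *Cd3e* above *Cd3g* and *Cd3g* above *Cd3d* in 3 of 3 infarcts.

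Infarct 1 held the highest level of all 10 members. The ratio of infarct 1 to the mean of infarcts 2 and 3 was 4.62 for *Cd3d*, 4.20 for *Cd3g*, 4.03 for *Trac* and 3.64 for *Cd3e*, and it was lowest for *Cd8b1* (2.25) and *Cd8a* (1.86). The median of the members was 3.22, whereas it was 1.18 over all 3999 upregulated genes, with 5th and 95th percentiles of 0.642 and 2.06. *Trbc1* (1.53) and *Trdc* (0.605) lay inside that range. Of the other lists, the ratio had a median of 2.56 for CD4 lineage genes, 2.12 for B cell markers, 1.91 for CD8 lineage and cytotoxic genes, 1.57 for proximal signaling, 1.36 for NK cell markers and 1.28 for macrophage markers. Summed neuron markers were lowest in infarct 1, at 464 CPM compared with 617 and 1207 CPM in infarcts 2 and 3. The part of tissue composition in the difference between infarcts was not tested.

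Downstream of the receptor, 15 of 17 genes of proximal signaling were tested, of which 12 were upregulated and 1 was downregulated, with a median log2 fold change of 3.86 (25.7%, 20.9% and 0.03 over all tested genes). *Zap70*, *Lat*, *Txk*, *Grap2*, *Themis*, *Skap1* and *Sh2d2a* had 0 to 16 counts in each contralateral library. Without their infarct counts these genes would not have passed the filter. The number called and the median are therefore a description. *Lck*, the kinase that the coreceptors bind, was counted 724, 274 and 236 times in infarcts and 37, 51 and 29 times on the contralateral side. Its log2 fold change was 3.57 ± 0.56 (SE; edgeR adjusted *p* = 0.000999), and 2.80 without infarct 1. *Zap70*, the kinase recruited to CD3 and zeta, was counted 49, 33 and 27 times and 9, 7 and 1 times, a log2 fold change of 2.87 ± 0.54 (edgeR adjusted *p* = 0.00103). *Lat*, the membrane scaffold phosphorylated by ZAP-70, was counted 29, 23 and 15 times and 1, 0 and 0 times, a ratio of 74.4 (12.9 to 2982; edgeR adjusted *p* = 0.00017) that rests on 1 count in contralateral cortex 1. *Lck* was highest in infarct 1, with a ratio of 3.18 to the mean of the others.

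*Lcp2*, *Vav1* and *Ptprc*, which myeloid and B cells use as well, were upregulated by 4.03, 4.33 and 5.81 on the log2 scale. *Rasgrp1*, an activator of Ras that neurons also express, was the 1 downregulated gene, at -2.30 ± 0.44 (SE; edgeR adjusted *p* = 0.00272), and -2.95 without infarct 3. *Prkcq* (0.91, edgeR adjusted *p* = 0.000906) did not reach a 2-fold change, although it did with library totals (1.11). *Plcg1* (-0.14, edgeR adjusted *p* = 0.3998) was not called, and its value was 0.059 with library totals, a scaling that moved the median of all genes by 0.20. *Sh2d1a* and *Trat1* failed the filter.

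Of 10 negative regulators of the receptor, 9 were tested, 5 were upregulated and 1 was downregulated (25.7% and 20.9% of all tested genes), with a median log2 fold change of 2.46. *Cd5* and *Ubash3a* had 0 to 2 counts in each contralateral library and passed the filter through their infarct counts alone. *Cd5*, an inhibitory receptor of T cells and some B cells, was counted 40, 32 and 18 times in infarcts and 2, 0 and 2 times on the contralateral side, with a log2 fold change of 4.53 ± 0.73 (SE; edgeR adjusted *p* = 0.000393). *Ptpn22* (4.67), *Ptpn6* (4.60) and *Csk* (2.46), which act on Lck and its substrates, were upregulated, as was *Ubash3a*, a phosphatase-like protein of T cells, with 62, 29 and 17 counts against 1, 0 and 0. *Dgkz*, which ends diacylglycerol signaling, was downregulated by 1.44 on the log2 scale (-1.44, edgeR adjusted *p* = 8.97e-05). Its level in contralateral cortices 1, 2 and 3 was 295, 270 and 332 CPM, where the 3 CD3 genes together gave 0.261, 0 and 0 CPM. The part of T cells in the *Dgkz* level was not tested. *Cd6*, a receptor related to *Cd5*, was counted 62, 16 and 15 times and 14, 18 and 19 times. Its log2 value of 0.99 (edgeR adjusted *p* = 0.214) rested on infarct 1 and was -0.082 without it.

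**Figure D4:**
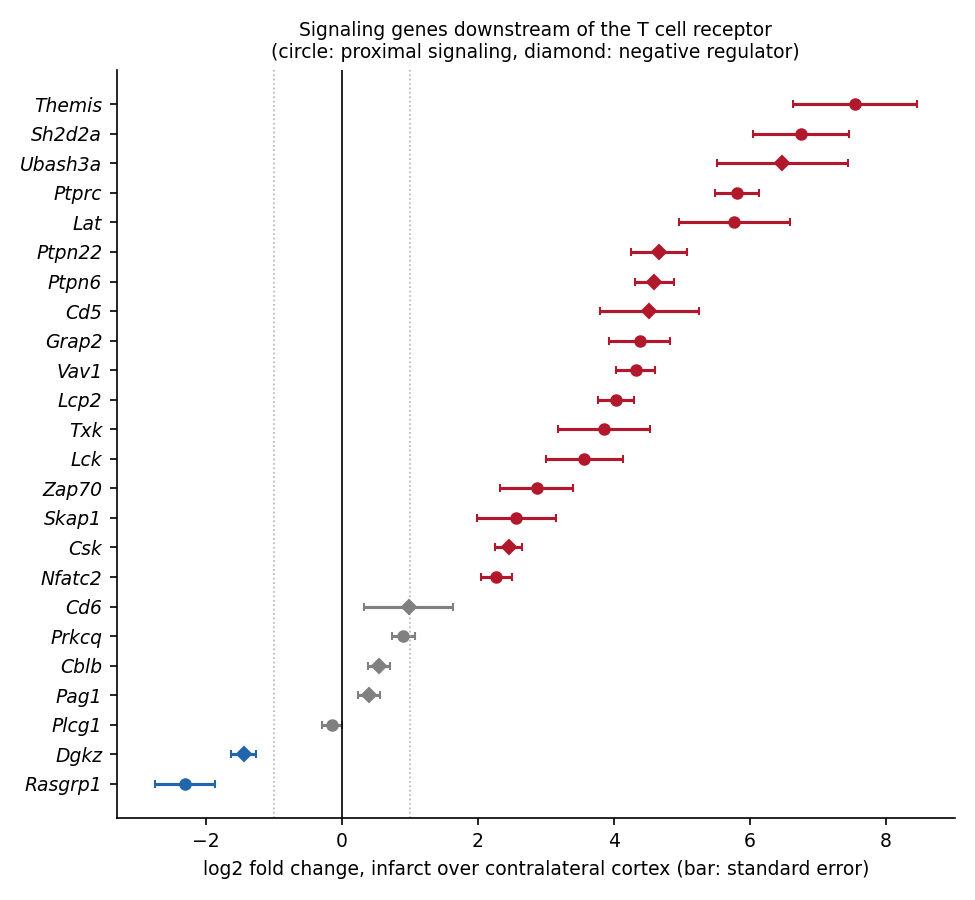
Log2 fold change of infarct over contralateral cortex for the tested genes of proximal signaling (circles) and negative regulation (diamonds), with the standard error as a bar. Red genes were called upregulated, blue genes downregulated and gray genes neither, and dotted lines mark a 2-fold change. *Rasgrp1* and *Dgkz* are the downregulated genes, and values of genes with few contralateral counts, such as *Themis* and *Sh2d2a*, depend on those counts.

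Among 8 genes of the CD4 lineage, 5 were tested and 5 were upregulated (25.7% of all tested genes), with a median log2 fold change of 3.40. *Icos*, *Il2ra*, *Tnfrsf4* and *Cxcr5* had 0 to 14 counts in each contralateral library. They passed the filter through their infarct counts alone, so the number called is a description. *Icos*, a costimulatory receptor of activated T cells, was counted 146, 60 and 35 times in infarcts and 4, 1 and 0 times on the contralateral side, with a log2 fold change of 5.71 ± 0.88 (SE; edgeR adjusted *p* = 0.000474). It was 4.88 without infarct 1 and 7.01 without contralateral cortex 1. *Zbtb7b*, the transcription factor of the CD4 fate, was upregulated by 1.56 and *Cxcr5* by 3.79 on the log2 scale. *Zbtb7b* was counted 558, 723 and 576 times in infarcts and 282, 237 and 178 times in contralateral cortices. Its contralateral level averaged 15.5 CPM, where *Cd4* averaged 0.183 CPM. The part of T cells in the levels of *Zbtb7b* and *Cxcr5* was not tested. *Tnfrsf4* (1.83, edgeR adjusted *p* = 0.0141) was not called without infarct 1 (1.26, adjusted *p* = 0.0592), contralateral cortex 2 (adjusted *p* = 0.051) or contralateral cortex 3 (adjusted *p* = 0.0531). The defining genes of regulatory and helper function were near the limit of detection. *Foxp3* had 10, 4 and 6 counts in infarcts and 2, 0 and 0 in contralateral cortices. *Cd40lg* had 16, 18 and 6 against 0 in each. When the filter on low counts was left out, 7 of 8 genes of this list were called. Among them were *Foxp3* (edgeR adjusted *p* = 0.0162) and *Cd40lg* (edgeR adjusted *p* = 7.08e-06).

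Of 10 genes of the CD8 lineage and of cytotoxic function, 6 were tested and 6 were upregulated (25.7% of all tested genes). These 6 had at most 3 counts in a contralateral library and passed the filter through their infarct counts alone, so their number is a description. Their median log2 fold change was 7.64, or 5.02 with the genes at 0 in all contralateral cortices set at their bounds. *Runx3*, the transcription factor of the CD8 fate, was counted 58, 44 and 42 times in infarcts and 0 times in each contralateral cortex (at least 17.04-fold, edgeR adjusted *p* = 4.97e-05). *Eomes*, a factor of effector and memory CD8 T cells and of NK cells, was counted 66, 20 and 14 times and 0 times (at least 12.2-fold, and 5.78-fold without infarct 1). *Prf1*, which encodes perforin, was counted 32, 25 and 13 times against 0. *Nkg7*, a cytotoxic granule protein, was counted 232, 103 and 76 times against 1, 0 and 1, a ratio of 228 (62.8 to 1891), and 144 (39.2 to 1194) without infarct 1. The granzyme genes had few counts and were not tested: *Gzma* had 10, 4 and 5, *Gzmb* 10, 7 and 3 and *Gzmk* 42, 10 and 9 in infarcts. With no filter on low counts, 10 of 10 genes of this list were called.

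Of 8 transcription factors of the T lineage, 7 were tested and 5 were upregulated (25.7% of all tested genes), with a median of 2.59. Of these, *Gata3* passed the filter through its infarct counts alone, so the number called is a description. *Tcf7*, which acts early in T cell commitment, was upregulated by 2.69 on the log2 scale. *Gata3*, a factor of helper T cells and innate lymphoid cells, was counted 17, 58 and 19 times in infarcts and 0 times in contralateral cortices and was highest in infarct 2 rather than infarct 1. *Bcl11b*, which both T cells and cortical neurons express, was not called (-0.92, edgeR adjusted *p* = 0.0878), but was called at -1.50 without infarct 3 and at -1.08 with limma voom. *Lef1* (0.87) was short of a 2-fold change, and it was called without infarct 3 (1.09) and with library totals (1.07).

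Markers of other cell types were measured in the same libraries, in which 25.7% of all tested genes were upregulated and 20.9% downregulated. Of 8 NK cell markers, 7 were tested and upregulated, having passed the filter through their infarct counts alone, with a summed level of 18.2 to 33.2 CPM in infarcts and 0 to 0.157 CPM in contralateral cortices, and *Klrb1c*, *Klra8*, *Klre1*, *Klri2* and *Klra4* were at 0 in all 3 contralateral cortices. Of 9 conventional dendritic cell markers, 7 were upregulated (39.4 to 64.2 CPM compared with 24.9 to 28.4 CPM), and *Flt3* (log2 fold change -0.54) and *Zbtb46* (log2 fold change -0.39) were not called. *Xcr1*, which marks the dendritic cells that carry CD8 alpha, was counted 100, 99 and 45 times in infarcts and 0, 1 and 0 times in contralateral cortices. All 7 macrophage markers were upregulated (6087 to 9718 CPM compared with 176 to 237 CPM), as were all 6 B cell markers (150 to 355 CPM compared with 0.326 to 0.831 CPM). Without their infarct counts, the 6 B cell markers and the 7 upregulated conventional dendritic cell markers would not have passed the filter. Of 5 plasmacytoid dendritic cell markers, 2 were upregulated and 1 was downregulated. In contrast, all 6 neuron markers were downregulated (464 to 1207 CPM compared with 7034 to 8238 CPM), 1 of 4 astrocyte markers was upregulated and 1 downregulated, and 1 of 4 oligodendrocyte markers was upregulated. The part of these cells in the levels of *Cd247*, *Cd2*, *Cd4*, *Cd8a*, the signaling genes, the negative regulators, the CD4 lineage genes and the cytotoxic genes was not tested.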

How the data were processed

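Stranded mRNA libraries were made from 3 infarcts and 3 contralateral cortices, 1 from each tissue sample. Per the labels and the study's methods, reads were demultiplexed with bcl2fastq 2.19, trimmed with Trimmomatic 0.32 and aligned to GRCm38 with STAR 2.5.2b. The authors deposited raw counts per Ensembl gene made with HTSeq, without normalization, and its version, annotation and strand setting are not given in the sources used here. Entries that name no gene (26.6% to 34.3% of tallied reads) were left out. Of 46078 identifiers, 45143 were found in GENCODE M21.

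The members and gene lists were chosen with earlier results of these data known, so none is independent support. Differential expression was tested with edgeR 4.0.16 (R 4.3.3): after filterByExpr, libraries were scaled with TMM and genes fitted with region as the only term (glmQLFit, robust, and glmQLFTest), and *p* values were adjusted over all 15554 tested genes with the Benjamini-Hochberg method. The study used DESeq2, which was run here (1.42.0) as an alternative, as was limma voom (3.58.1). Other alternatives were other scalings, no filter or a stricter filter on low counts, thinned counts, a replicate block, no fold threshold and each library left out. The fit without the filter and without infarct 1, and bounds with libraries left out, were added after seeing the data. The procedure was tested on simulated data. Some genes of proximal signaling are not reported here and were left out of their list. All members, the other constant genes and examples from each list are named, and variable segments are named by their total count. *Cd5*, *Cd6* and other examples within lists were picked by known function after their values were seen. A planned ranking of genes by correlation with the CD3 genes was not made, because the libraries form 2 separate groups. SciPy 1.17.1, pandas 2.3.3 and matplotlib 3.10.9 were used under Python 3.11.15.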

Additional observations from a re-analysis of the deposited data

How the results depend on the processing

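Of the 9 tested members, 8 kept their call in all 14 settings run for them, and *Trbc2* kept it in 10 of 15. A minimum of 10 counts in every library left out most genes that were near 0 in contralateral cortices, so that 1 member, 0 other constant genes, 5 genes of proximal signaling, 3 negative regulators, 1 CD4 lineage gene, 0 CD8 lineage and cytotoxic genes and 0 NK cell markers were called. With DESeq2 and with no filter on low counts, more genes of the lists were tested. In either setting, 5 other constant genes, 7 CD4 lineage genes and 10 CD8 lineage and cytotoxic genes were called. With library totals, *Plcg1* was at 0.059, and *Cd6* ranged from -0.082 to 1.37 with each library left out, the lowest without infarct 1. The per-length log2 difference of *Cd4* and *Cd8a* was 0.11 with the longest transcript and -2.22 for *Cd4* against *Cd8a* plus *Cd8b1*. The causes of these shifts were not tested further.

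With each library left out in turn, 8 to 10 members, 2 to 4 other constant genes, 12 to 13 genes of proximal signaling, 5 negative regulators, 4 to 6 CD4 lineage genes, 6 to 8 CD8 lineage and cytotoxic genes, 5 to 7 transcription factors and 7 NK cell markers were called upregulated. Over all genes, 4028 to 4174 were called higher and 3145 to 3608 lower. The log2 ratio of *Cd4* to CD8 counts differed between regions by -2.92 to -2.45, and the per-length difference ranged from -0.28 to 0.30. With all libraries kept, the ratio differed between regions by -2.37 with 1 added to each count and by -1.83 with 3 added. Against *Cd8a* alone it differed by -2.52, and against *Cd8b1* alone by -1.97. Of the values of single genes under all alternatives, 750 kept direction and call, 8 lost the call, 5 gained it and 2 reversed.

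Labels number the libraries 1 to 3 in each region, but deviations of same-numbered libraries correlated at -0.19, 0.10 and 0.0011, so the numbers were not taken as pairs. With the replicate number as a block, 9 members, 3945 higher and 3222 lower genes were called, the difference of the *Cd4* to CD8 ratio was -2.74, and no call changed among the members, the other constant genes and the signaling, lineage and transcription factor genes, nor did the counts of these lists or of NK cell markers. The block was not run for single markers of NK cells or for the lists of other cell types. With 3 libraries per region and at most 5 counts in a contralateral library for each member other than *Trbc2*, folds above these bounds could not be resolved. Groups of 3 are too small for a check on single outlying samples.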
